A study of Mus musculus with 9 samples.

Results

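The VEGF and angiopoietin system was followed through 10 genes on microarrays of mouse lung, comprising 5 ligand genes (Vegfa, Vegfb, Vegfc, Angpt1 and Angpt2) and 5 receptor genes (Kdr, Flt1, Flt4, Tek and Tie1). The members are a list of gene names drawn up with earlier results of these data known, and all 10 were measured, out of 19751 gene symbols on the array. They were covered by 12 probes, since Vegfa and Kdr have a pair of probes each, and a gene with several probes was represented by the one with the brightest mean. The arrays hold total lung RNA of 10-week-old male C57BL/6 mice in 4 control and 5 irradiated arrays, hybridized singly with Cy5-labeled RNA. The irradiated arrays carry RNA of irradiated left lung, and the labels describe anesthesia with zoletil and rompun during irradiation. Dose, irradiated area and time after exposure are not given for these arrays, and the study used more than one of each. The 5 irradiated arrays may thus hold different conditions, were treated as the single group that the labels give, and have an SD that would include any such difference. RNA was pooled before labeling, and nothing says that the arrays of a group came from separate animals. The p-values therefore measure the spread between arrays, which may be partly technical. On each array, 72.8% to 89.1% of 44397 spots were well above background, and the lung markers Sftpc and Scgb1a1 were so on all 9 arrays.

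VEGF-A is the main growth and survival factor of blood vessels and signals mostly through the receptor tyrosine kinase VEGFR-2, encoded by Kdr. Flt1 encodes VEGFR-1, which binds VEGF-A, VEGF-B and placental growth factor tightly and, in its soluble form, holds VEGF-A away from Kdr. Flt4 encodes VEGFR-3, the receptor of VEGF-C and VEGF-D on lymphatic and some blood vessels. Tek encodes TIE2, a receptor that keeps vessels quiescent and tight when bound by angiopoietin 1, while angiopoietin 2 acts as a context-dependent antagonist released by activated endothelium. Tie1 encodes a related receptor without a clear ligand of its own that modulates TIE2. In the lung, type I and type II alveolar cells are major sources of VEGF-A, and the receptors lie chiefly on the dense capillary bed.

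The sequences just upstream of 4 endothelial receptor genes are shown because ETS factors such as ERG and FLI1 are known regulators of endothelial genes and bind the core GGAA. Each line holds the 250 bases before a RefSeq transcript start on the mouse assembly GRCm38.p6, with every GGAA, or TTCC for the other strand, in capitals. The Tek window is chr4:94739039-94739288 on the plus strand, and the Tie1 window is chr4:118489850-118490099 on the minus strand. The Kdr window is chr5:75978456-75978705 on the minus strand, and the Flt1 window is chr5:147726012-147726261 on the minus strand.
Tek: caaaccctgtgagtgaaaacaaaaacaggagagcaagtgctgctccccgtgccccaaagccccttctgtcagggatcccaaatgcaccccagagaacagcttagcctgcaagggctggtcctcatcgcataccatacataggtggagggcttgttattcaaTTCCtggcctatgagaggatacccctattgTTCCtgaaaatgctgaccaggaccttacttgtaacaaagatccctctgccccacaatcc
Tie1: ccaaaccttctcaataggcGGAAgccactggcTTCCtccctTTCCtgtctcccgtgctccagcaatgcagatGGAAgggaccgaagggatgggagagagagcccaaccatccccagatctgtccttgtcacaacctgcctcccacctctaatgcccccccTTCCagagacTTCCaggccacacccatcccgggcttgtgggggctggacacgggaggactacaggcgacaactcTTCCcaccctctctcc
Kdr: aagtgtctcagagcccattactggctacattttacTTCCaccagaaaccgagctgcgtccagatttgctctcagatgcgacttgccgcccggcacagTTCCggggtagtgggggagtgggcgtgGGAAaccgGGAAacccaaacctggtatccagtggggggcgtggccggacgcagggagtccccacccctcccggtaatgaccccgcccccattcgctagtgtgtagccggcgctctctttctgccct
Flt1: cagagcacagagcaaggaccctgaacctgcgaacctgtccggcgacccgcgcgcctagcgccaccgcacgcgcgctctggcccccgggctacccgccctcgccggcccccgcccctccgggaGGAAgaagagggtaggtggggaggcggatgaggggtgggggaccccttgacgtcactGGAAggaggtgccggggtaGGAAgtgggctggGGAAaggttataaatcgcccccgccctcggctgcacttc
Of the 10 members, 8 were found in the promoter table, with 9 windows in all because Vegfa has a pair of start sites there. The core was present 7 times before Tie1, 4 times before Kdr, 4 times before Flt1 and 2 times before Tek. The windows of Flt4 and Vegfb held it 2 times and 1 time, that of Vegfc 1 time, and those of Vegfa 2 and 6 times. It is a very common word, found in 93.4% of 32851 mouse windows of the same length with a median of 3 matches. The core of the hypoxia response element (ACGTG, or CACGT for the other strand, which overlap each other in the word CACGTG) was present 1 time in one Vegfa window and in no other member's window, against 16.6% of all windows. The forkhead core TGTTTAC, or GTAAACA for the other strand, was present in none of the 9 windows, against 3.17% of all windows. The Vegfa window with the hypoxia core (chr17:46025164-46025413, minus strand) lies downstream of the other Vegfa window (chr17:46032378-46032627), which held none. These are matches of letters, not measured binding.

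None of the 10 genes passed the test after adjustment over all probes when the arrays were not paired. With arrays paired by scanner position, Tek or Tie1 passed depending on the model, as described below. The model in which Tek passed called 7.37% of all probes, and that in which Tie1 passed called 2.81%. The comparison of the 5 irradiated with the 4 control arrays used limma on log2 intensities, the log2 of the background-corrected fluorescence of a probe after quantile normalization, with a threshold of 0.05 on the Benjamini-Hochberg adjusted p. By this measure 0 of 10 members were called, against a background of 0.333% of the 39302 probes tested. At an unadjusted p under 0.05, 1 member (Tek) was below the threshold, against 12.4% of all genes by their brightest probe. The difference between group means was below 0 for 7 members and above 0 for 3, with a median of -0.14 (-0.23 without irradiated 1 and -0.092 with the intensities that the authors normalized themselves, called the authors' table), against a median of 0.01 and 48.1% of genes below 0 over 19697 genes. All 5 receptor genes were lower on average in the irradiated arrays (median -0.25, or -0.14 without irradiated 5 and -0.36 without control 3 and irradiated 1). They stayed below 0 under each of the 21 alternative settings, but with 1 array left out Kdr, Flt1 and Flt4 came as close to 0 as -0.031, -0.025 and -0.027. The ligand genes had a median of 0.08, with 3 higher and 2 lower, which ran from -0.047 to 0.16 over 19 alternatives, and the receptors were not tested against the ligands. In no member were all irradiated arrays below, or all above, the control arrays, an arrangement found for 1.65% and 2.51% of all probes. All 12 probes were well above background on all 9 arrays, and no spot was saturated.

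**Figure D1:**
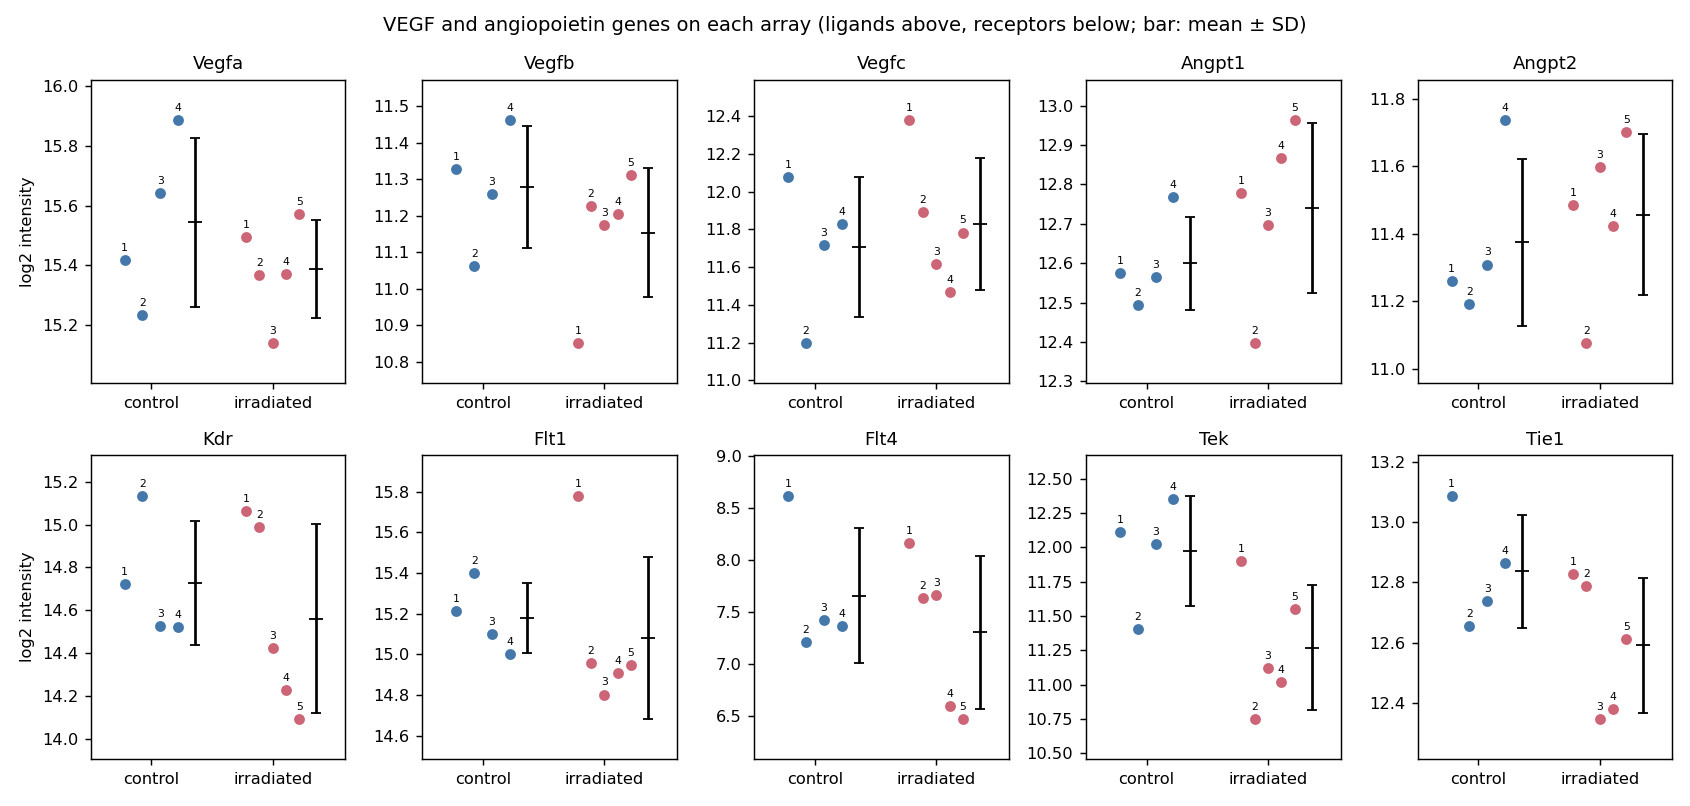
Log2 intensity (vertical axis) of the brightest probe of each of the 10 genes in the 4 control (blue) and 5 irradiated (red) arrays, numbered as in the labels, with the group mean ± SD as a bar. Each panel has its own axis, and levels of different probes are not comparable. Control and irradiated arrays overlap in every panel, and irradiated 1 is the highest irradiated array for all 5 receptors.

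Tek had the largest difference of the 10. In the control arrays 1 to 4 its log2 intensity was 12.11, 11.41, 12.03 and 12.35, and in the irradiated arrays 1 to 5 it was 11.90, 10.75, 11.12, 11.02 and 11.55. Of the irradiated arrays, 3 lay below the lowest control array, whereas irradiated 1 and irradiated 5 lay within the control range. The mean was 11.97 ± 0.40 (SD, n = 4) in control and 11.27 ± 0.46 (SD, n = 5) in irradiated lung. The difference was -0.71 on the log2 scale, or 1.63-fold lower, with a 95% interval from -1.27 to -0.14. Its unadjusted limma p was 0.0191, its adjusted p was 0.344, and the two-sided exact permutation p was 0.0556, where 0.00794 is the smallest that 4 and 5 arrays allow. The interval excluded 0, but in this fit without pairs the gene did not pass once all probes were taken into account. It passed with arrays paired by scanner position as a random block, described below (limma adjusted p = 0.0274), as did 7.37% of all probes.

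Tie1, the partner of TIE2 in the endothelial membrane, had a smaller and more even difference. Its control values were 13.09, 12.66, 12.74 and 12.86, and its irradiated values were 12.83, 12.79, 12.35, 12.38 and 12.61. Here 3 irradiated arrays lay below the lowest control array and the others were inside the control range. The mean was 12.84 ± 0.19 (SD, n = 4) in control and 12.59 ± 0.22 (SD, n = 5) in irradiated lung, a difference of -0.25 with a 95% interval from -0.54 to 0.05 (limma adjusted p = 0.608, exact permutation p = 0.159). Without control 1 it was -0.16. With the same pairs as a fixed block Tie1 passed (limma adjusted p = 0.0469), as did 2.81% of all probes. With the random block Tie1 did not pass.

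The VEGF receptors showed wider spreads than differences. Kdr, the principal VEGF-A receptor of capillaries, was at 14.72, 15.14, 14.53 and 14.52 in the control arrays and at 15.06, 14.99, 14.42, 14.23 and 14.09 in the irradiated arrays. The 5 irradiated arrays were split, with 3 below the lowest control and 2 close to the upper controls. The difference was -0.17 with a 95% interval from -0.66 to 0.33 (limma adjusted p = 0.893), and it ran from -0.29 without irradiated 1 to -0.031 without control 2. This probe is printed on 10 spots of each array, of which 9 or 10 were used, and the SD among the spots of an array was 0.04 to 0.08. The SD among arrays was 0.29 in control and 0.44 in irradiated lung. A dimmer probe of Kdr, on a single spot, gave 13.47, 14.05, 13.60 and 12.71 in control and 13.39, 13.56, 13.16, 13.32 and 12.22 in irradiated arrays. It had the same sign, at -0.33 with a 95% interval from -1.01 to 0.36, and control 2 was the highest array on both probes.

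Flt1, the high-affinity receptor that also acts as a trap, was at 15.21, 15.40, 15.10 and 15.003 in control arrays and at 15.78, 14.96, 14.80, 14.91 and 14.95 in irradiated arrays. In 4 of the 5 irradiated arrays it was below every control array, and in irradiated 1 it was above every control array. The mean difference was -0.10 with a 95% interval from -0.52 to 0.32 (limma adjusted p = 0.937). It ran from -0.27 without irradiated 1 to -0.025 without control 2. Flt4, the receptor of lymphatic vessels and the dimmest of the members' probes, was at 8.62, 7.22, 7.43 and 7.36 in control and at 8.16, 7.64, 7.67, 6.60 and 6.48 in irradiated arrays. Both groups were broad, with control 1 more than a log2 unit above the other control arrays. Its difference was -0.35 with a 95% interval from -1.27 to 0.57 (limma adjusted p = 0.873), the widest interval of the 10 members. Without control 1 the difference of Flt4 was -0.027, and over all arrays left out in turn it ran from -0.56 to -0.027.

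Among the ligands of the VEGF receptors, Vegfa was at 15.42, 15.23, 15.64 and 15.89 in control arrays and at 15.50, 15.37, 15.14, 15.37 and 15.57 in irradiated arrays. The ranges overlapped in part, with only irradiated 3 below the lowest control array, and control 3 and control 4 above every irradiated array. The difference was -0.16 with a 95% interval from -0.46 to 0.15 (limma adjusted p = 0.812), and the dimmer Vegfa probe, matched to another transcript accession, gave -0.09 with a 95% interval from -0.46 to 0.27. Vegfb, whose product binds VEGFR-1, ranged from 11.06 to 11.46 in control and from 10.85 to 11.31 in irradiated arrays, a difference of -0.13 with a 95% interval from -0.39 to 0.14. Vegfc, the lymphatic growth factor, ranged from 11.20 to 12.08 in control and from 11.47 to 12.38 in irradiated arrays, a difference of 0.12 with a 95% interval from -0.35 to 0.59. The intervals of all 3 VEGF ligand genes included 0. With 1 array left out, Vegfa ran from -0.26 (without control 2) to -0.041 (without control 4), and Vegfb from -0.20 (without control 2) to -0.049 (without irradiated 1). Vegfc turned sign, from 0.25 (without control 1) to -0.047 (without control 2).

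The genes of both angiopoietins overlapped between the groups. Angpt1, the agonist made mainly by mural and other mesenchymal cells, was at 12.57, 12.49, 12.56 and 12.77 in control and at 12.78, 12.40, 12.70, 12.87 and 12.96 in irradiated arrays. Of the irradiated arrays, 3 were above the highest control and 1 was below the lowest. The difference was 0.14 with a 95% interval from -0.12 to 0.41 (limma adjusted p = 0.797). Angpt2, stored in and released from endothelial cells, ranged from 11.19 to 11.74 in control and from 11.08 to 11.70 in irradiated arrays, a difference of 0.08 with a 95% interval from -0.26 to 0.42 (limma adjusted p = 0.935), which ran from 0.020 without control 2 to 0.20 without control 4. Angpt1 ran from 0.085 without irradiated 5 to 0.23 without irradiated 2.

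**Figure D2:**
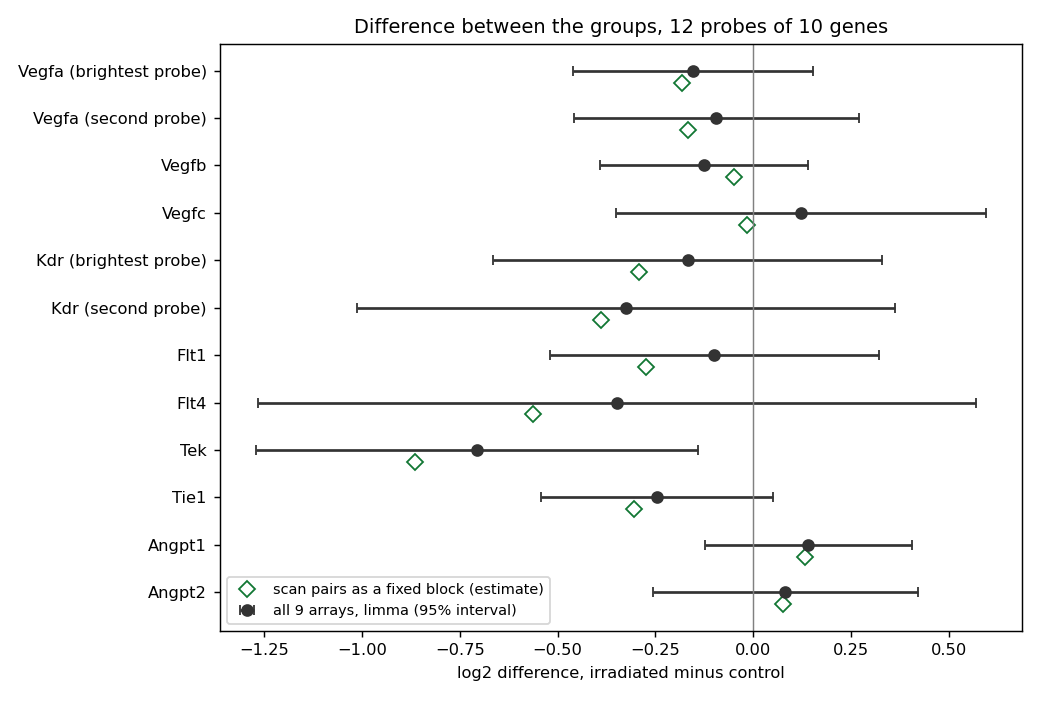
Log2 difference, irradiated minus control (horizontal axis), for the 12 probes of the 10 genes. Filled points are limma estimates over all 9 arrays with 95% intervals, and open diamonds are estimates with scan neighbors as a fixed block; the interval of Tek, at -0.71, is the only one that does not cross 0.

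The arrays also formed pairs of scan neighbors. Each control array had 1 irradiated array beside it on the scanner image, at nearly the same height and with a similar local background. This paired control 1 with irradiated 2, control 2 with irradiated 3, control 3 with irradiated 4 and control 4 with irradiated 5. Irradiated 1 (horizontal place 6625.2, height 224.3, background 40) was the closest in height to control 2 among the controls (6638.3, 218 and 43.5). Both had nearly the same horizontal place and so were not side by side, and irradiated 1 was left without a neighbor. The files do not name what the neighbors shared. Over all probes, the deviations of neighbors from their group means correlated at 0.20 to 0.46 across probes, which are not independent replicates. With the neighbors as a fixed block, where irradiated 1 adds nothing to the estimate, 2.81% of all probes were called, and with the neighbors as a random block 7.37%.

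Within the neighbors, Tek was lower in the irradiated array of all 4 pairs, with log2 differences of -1.36, -0.29, -1.01 and -0.80. Tie1 was also lower in all 4, with differences of -0.30, -0.31, -0.36 and -0.25, so its difference was nearly the same in each pair. The differences of Flt1 were -0.25, -0.60, -0.19 and -0.05, and those of Vegfa -0.05, -0.09, -0.27 and -0.31. These 4 members were lower in the irradiated array of every pair, as were 16.8% of all probes, and no member was higher in every pair, as were 14.7% of all probes. Of the endothelial markers described below, Cdh5, Eng, Vwf, Clec14a, Calcrl, Cd93 and Acvrl1 were also lower in every pair, and Robo4 and Mmrn2 higher. In limma with the fixed block, Tie1 passed the threshold (-0.31, adjusted p = 0.0469) and was the only member to do so, while Tek did not (-0.87, adjusted p = 0.0734). With the random block the calls were exchanged, and Tek passed (-0.80, adjusted p = 0.0274) while Tie1 did not (-0.28, adjusted p = 0.0559). Kdr was lower in 3 pairs and higher in 1, at 0.26, -0.71, -0.30 and -0.43. In the same order, Flt4 was at -0.98, 0.45, -0.83 and -0.89, lower in all pairs but that of control 2. Whether the shared scan feature or the grouping accounts for the calls that depend on it was not tested.

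**Figure D3:**
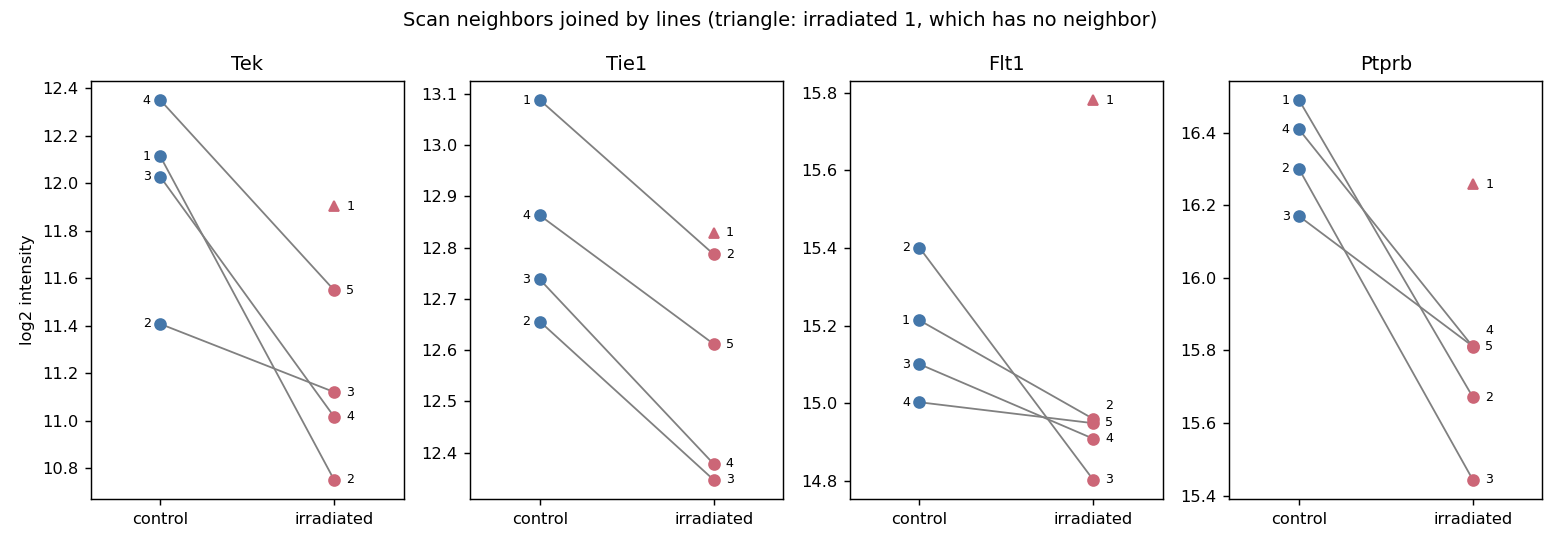
Log2 intensity (vertical axis) of Tek, Tie1, Flt1 and Ptprb in control (blue) and irradiated (red) arrays, numbered as in the labels, with scan neighbors joined by lines. Each of the 4 lines descends in each panel, and irradiated 1 (triangle), which was left without a neighbor, is the highest irradiated array for each gene.

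A further 6 comparisons were made of the log2 ratio of a pair of members on the same array, which a constant factor for the array leaves unchanged, though quantile normalization does not. The log2 ratio of Tek to Tie1 was -0.97, -1.25, -0.71 and -0.51 in control and -0.93, -2.04, -1.23, -1.36 and -1.06 in irradiated arrays. The difference between the group means was -0.46 (exact permutation p = 0.119, adjusted over the 6 ratios 0.714), and it was -0.28 without irradiated 2 and also with the authors' table. The ratio of Vegfc to its receptor gene Flt4 was higher by 0.47 (exact permutation p = 0.246, adjusted 0.738), and by 0.27 to 0.63 over the alternatives, the lower end without control 1 or without irradiated 5. The ratio of Angpt2 to Angpt1, often used as a gauge of vessel activation, differed by -0.06 (exact permutation p = 0.492, adjusted 0.937). Vegfa over Kdr, Vegfa over Flt1 and Kdr over Flt1 differed by 0.01, -0.06 and -0.07, none larger than the SD of the control arrays. None of the 6 ratios passed after adjustment.

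In bulk tissue, fewer cells of a type and less RNA per cell cannot be told apart, so the endothelial members were also set against endothelial markers of the same array. All 18 markers (among them Pecam1, Cdh5 and Cldn5) were measured and well above background on every array. Of these, 8 were higher and 10 lower, 0 passed after adjustment in limma, 3 had an unadjusted p under 0.05 (against 12.4% of all genes), and the median difference was -0.08, or 0.00033 without irradiated 5. With scan neighbors as a fixed block 1 of the 18 passed (Acvrl1, a vessel receptor of the BMP family), and with a random block 2 (Acvrl1 and Tmem100), against 2.81% and 7.37% of all probes. The mean of the list relative to the control mean ran from -0.14 to 0.15 in control arrays and from -0.23 to 0.24 in irradiated arrays, where irradiated 1 was again the highest. Relative to this mean, Tek was at -2.29, -2.70, -2.29 and -1.82 in control and at -2.59, -3.52, -3.08, -3.01 and -2.50 in irradiated arrays. Its difference was -0.66, close to its plain difference of -0.71, with an exact permutation p of 0.0476 (0.262 after adjustment over the 6 members compared), and it was -0.44 with the authors' table. For Tie1 it was -0.20 (exact permutation p = 0.0873, adjusted 0.262). Kdr, Flt1, Flt4 and Angpt2 differed by -0.12, -0.06, -0.31 and 0.13, each within the spread of the arrays. Flt4 came to -0.036 without control 1, and Angpt2 ran from 0.025 (without irradiated 5) to 0.27 (without control 4). None of the 6 passed after adjustment.

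**Figure D4:**
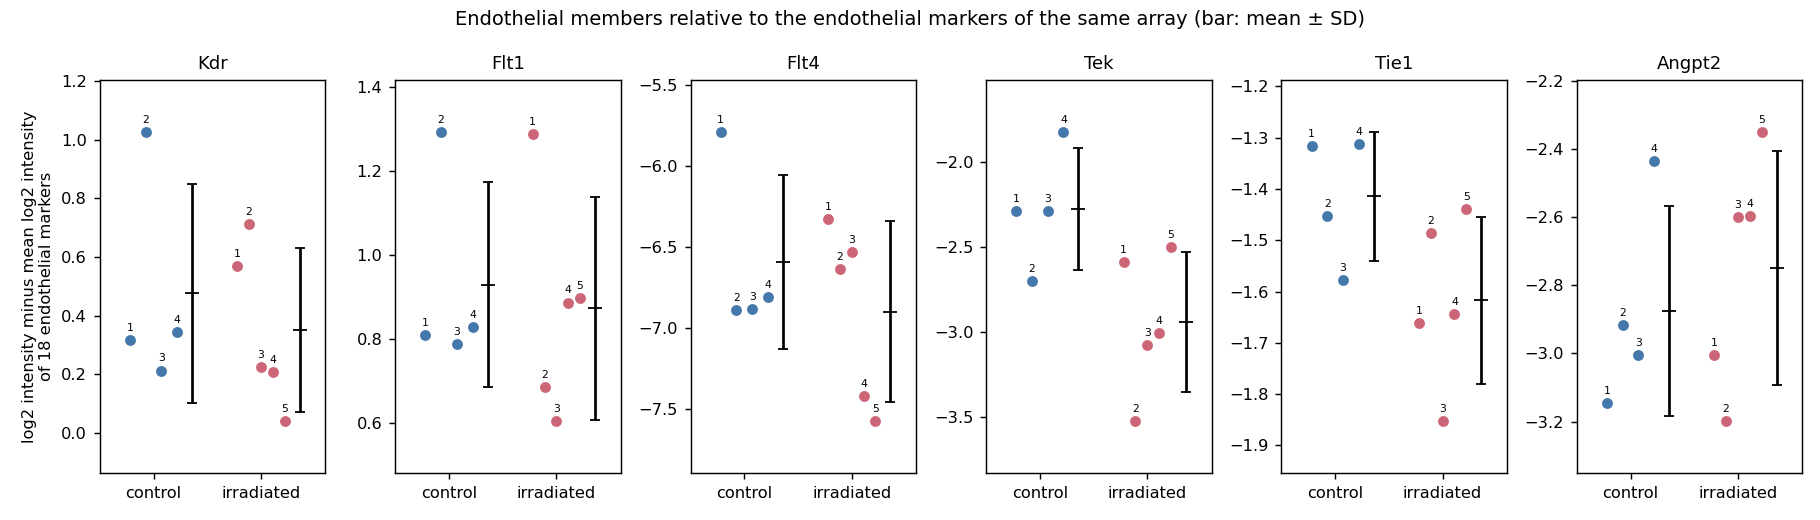
Log2 intensity of 6 endothelial members minus the mean log2 intensity of 18 endothelial markers on the same array (vertical axis), for control (blue) and irradiated (red) arrays, with the group mean ± SD as a bar. For Tek, 3 of the 5 irradiated arrays lie below the lowest control array, and in the other panels the groups overlap about as much or more.

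Marker lists of other cell types that carry or feed this system were read beside the members. Of 6 capillary subtype genes, 5 were lower and 1 higher, with a median of -0.22, which ran from -0.31 to -0.070 over 19 alternatives. Apln, the gene of apelin, a peptide of endothelial tip cells, differed by 1.04 and its receptor gene Aplnr by -0.57 (limma adjusted p = 0.124 and 0.265). Of 6 lymphatic markers, which bear on Flt4 and Vegfc, 5 were lower and 1 higher, with a median of -0.34, which was -0.11 with normexp background correction, -0.22 with the authors' table and -0.52 without control 3 and irradiated 1. The lymphatic factor Prox1 was well above background on only 7 arrays and Reln, which had the lowest difference of the list at -0.57, on only 3, and the exception in direction was Pdpn, which type I alveolar cells also make. The mean of the lymphatic list relative to control ran from -0.26 to 0.21 in control arrays and from -0.69 to 0.14 in irradiated arrays, with irradiated 5, which also had the lowest Flt4, at the bottom. Pericyte markers, which bear on Angpt1, had a median of 0.11 with 4 of 6 higher (0.018 without control 3 and 0.21 without control 2), their mean running from -0.24 to 0.24 in control and from -0.07 to 0.37 in irradiated arrays. Type II alveolar markers, a source of Vegfa, had a median of -0.12 with 4 of 6 lower (-0.23 with arrays scaled to their 75th percentile), and type I markers a median of 0.19 with 4 of the 5 measured higher (0.084 without control 2). At an unadjusted p under 0.05 were 2 of the 6 capillary genes, Apln higher and Aplnr lower, against 12.4% of all genes. So were 4 of the 6 lymphatic genes, Pdpn higher and 3 lower, among them Reln. Of the pericyte, type I and type II genes, 1 of each list was. No gene of these lists passed after adjustment over the 9 arrays without a block. With scan neighbors as a fixed block Aplnr, Pdpn and Slc34a2, a phosphate transporter of type II cells, passed (limma adjusted p = 0.0395, 0.0279 and 0.0433). With a random block these and Apln, Mmrn1, Kcnj8 and Abca3 passed. These are 3 and 7 of the 29 genes measured in the 5 lists, against 2.81% and 7.37% of all probes. The part of cell composition in the members' values was not tested.

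Muscle markers set single arrays apart. Cardiac genes, which mouse lung carries in its pulmonary veins, were low in irradiated 1 (mean of 10 genes -5.44 relative to control, other irradiated arrays -0.47 to 0.44), and skeletal muscle genes were high in control 3 (mean of 8 genes 4.60, other control arrays -1.87 to -1.27). Irradiated 1 is also the array in which all 5 receptors were highest among the irradiated arrays. Without both arrays, the differences of Tek and Tie1 were -0.84 and -0.34 (limma adjusted p = 0.269 and 0.495). Smooth muscle markers were lower in 4 of 4 with a median of -0.55, fibroblast markers had a median of 0.07 with 4 of 6 higher (-0.027 without control 3), and macrophage markers a median of 0.30 with 4 of the 5 measured higher (0.023 without control 2). None of these genes passed without a block, while 2 smooth muscle markers and 1 macrophage marker passed with scan neighbors as a fixed block, and 1 and 2 with a random block, against 2.81% and 7.37% of all probes. The part of these cells in the members' values was not tested.

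The wider pathway was followed through 43 further genes of VEGF and angiopoietin signaling, all of them measured and 39 well above background on every array. After adjustment 0 of the 43 passed in limma, whereas 10 had an unadjusted p under 0.05, of which 7 were higher (against 7.37% of all genes) and 3 lower (against 4.99%). In all, 19 were higher and 24 lower, with a median of -0.04 (-0.0078 without control 1 and -0.064 without control 3 and irradiated 1). The genes with the smallest p were a VEGF-family ligand, a hypoxia factor and a co-receptor, all higher in irradiated lung. With scan neighbors as a fixed block, 5 of the 43 passed (Vegfd, Rcan1, Ptprb, Svep1 and Foxo1), and with a random block 8 passed (these and Hif1a, Nrp2 and Pgf), against 2.81% and 7.37% of all probes.

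**Figure D5:**
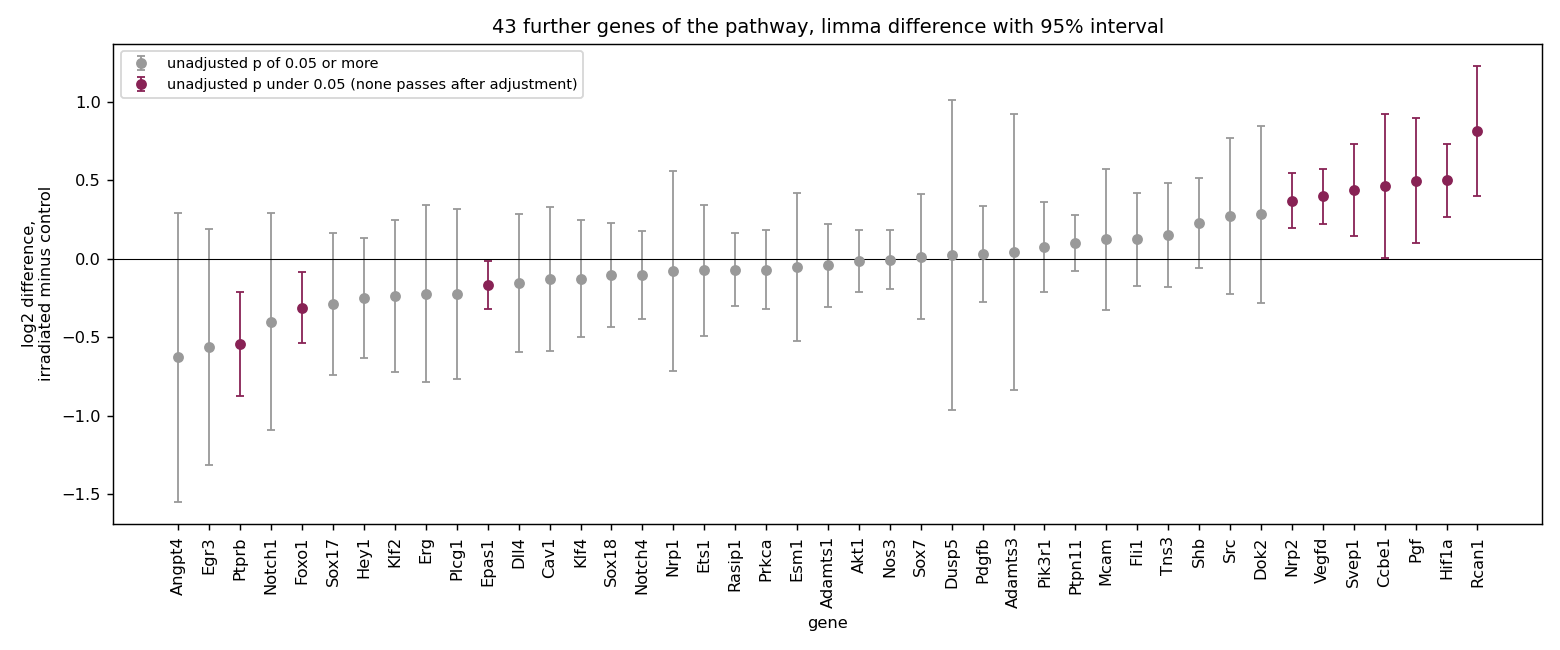
Log2 difference, irradiated minus control (vertical axis), of 43 further pathway genes in rising order, with 95% limma intervals. The 10 genes in purple had an unadjusted p under 0.05, from Ptprb at -0.54 to Rcan1 at 0.81, and none passed after adjustment over all probes.

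Of the other ligands, Vegfd, a ligand of VEGFR-3 abundant in lung, was at 13.37, 13.21, 13.48 and 13.35 in control and at 13.67, 13.86, 13.74, 13.72 and 13.75 in irradiated arrays. All irradiated arrays were above all control arrays, as for 2.51% of all probes. The difference was 0.40 (95% interval 0.22 to 0.57, limma adjusted p = 0.0762). Pgf, which encodes placental growth factor, a ligand of VEGFR-1, was at 8.0, 7.43, 7.63 and 7.62 in control and at 8.13, 8.57, 7.97, 7.96 and 8.19 in irradiated arrays. The groups overlapped only through control 1, and the difference was 0.50 (95% interval 0.10 to 0.89, limma adjusted p = 0.344), or 0.29 with the authors' table. Angpt4, a further ligand of TIE2, was well above background on 7 arrays and differed by -0.63 with a 95% interval from -1.55 to 0.29. The intervals of Vegfd and Pgf lay above 0, and that of Angpt4 included it.

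Nrp2, a co-receptor that binds VEGF-C and semaphorins, was at 13.33, 13.36, 13.26 and 13.43 in control and at 13.78, 13.65, 13.57, 13.72 and 13.84 in irradiated arrays. Here too all irradiated arrays were above all control arrays, as for 2.51% of all probes. The difference of Nrp2 was 0.37 (95% interval 0.19 to 0.54, limma adjusted p = 0.0990). Its relative Nrp1, the co-receptor of VEGF-A, differed by -0.08 with a much wider 95% interval, from -0.72 to 0.56. Ptprb encodes VE-PTP, the endothelial phosphatase that removes phosphate from TIE2, and was at 16.49, 16.30, 16.17 and 16.41 in control and at 16.26, 15.67, 15.44, 15.81 and 15.81 in irradiated arrays. In 4 irradiated arrays it was below every control array, and irradiated 1 lay within the control range. The difference was -0.54 (95% interval -0.87 to -0.21, limma adjusted p = 0.20), and without irradiated 1 it was -0.66 and passed (adjusted p = 0.0305). Over all probes 485 passed without that array, against 131 with it. Ptprb thus shared its sign and its highest irradiated array with Tek, and also with the other receptor genes among the members.

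Svep1, a matrix protein needed for lymphatic growth, ranged from 11.80 to 12.37 in control and from 12.34 to 12.77 in irradiated arrays, a difference of 0.44 (limma adjusted p = 0.249). Ccbe1, a cofactor in the cleavage of VEGF-C, ranged from 9.65 to 10.53 in control and from 10.08 to 10.62 in irradiated arrays, a difference of 0.46 (limma adjusted p = 0.494). Of the 4 matrix proteins and proteases of the list, 3 were higher and 1 was lower. The 12 intracellular signaling genes, among them Akt1, Nos3 and Plcg1, were split into 6 higher and 6 lower, between -0.22 and 0.28, with none at an unadjusted p under 0.05.

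Among transcription factors, Hif1a, the oxygen-regulated activator of Vegfa, was at 10.84, 10.50, 10.64 and 10.63 in control and at 11.30, 11.23, 11.16, 11.12 and 10.95 in irradiated arrays. All irradiated arrays were above all control arrays, as for 2.51% of all probes. The difference was 0.50 (95% interval 0.27 to 0.73, limma adjusted p = 0.0911), or 0.30 with the authors' table. Epas1, the related factor enriched in lung endothelium, lay in the other direction, from 18.17 to 18.25 in control and from 17.95 to 18.15 in irradiated arrays, a difference of -0.17 (limma adjusted p = 0.444), or -0.27 with arrays scaled to their 75th percentile. Foxo1, a factor that TIE2 signaling holds inactive through Akt, ranged from 13.03 to 13.34 in control and from 12.64 to 12.99 in irradiated arrays, a difference of -0.31 (95% interval -0.54 to -0.09, limma adjusted p = 0.288). In Epas1 and Foxo1 all irradiated arrays were below all control arrays, as for 1.65% of all probes. Of the 11 transcription factors 8 were lower and 3 higher, and the ETS factors Erg, Fli1 and Ets1 differed by -0.22, 0.12 and -0.08, each with an interval that included 0.

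Of 5 genes that VEGF induces in endothelial cells, Rcan1, an inhibitor of calcineurin, had the largest difference. It was at 10.78, 10.25, 10.55 and 11.08 in control and at 11.14, 11.45, 11.54, 11.39 and 11.88 in irradiated arrays. All irradiated arrays were above all control arrays, as for 2.51% of all probes. The difference was 0.81 or 1.76-fold (95% interval 0.40 to 1.23, limma adjusted p = 0.124), and it was 0.49 with the authors' table. Esm1, Dusp5 and Pdgfb differed by -0.05, 0.02 and 0.03, and Egr3, well above background on only 3 arrays, by -0.57 with a 95% interval from -1.32 to 0.19. The 4 Notch genes Dll4, Notch1, Notch4 and Hey1, which act downstream of VEGF in sprouting vessels, differed by -0.40 to -0.11, all below 0 and each with an interval that included 0. Rcan1 was therefore the only gene of the 5 with an interval that excluded 0.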

How the data were processed

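Lung RNA was hybridized to Agilent 44K one-color arrays. The authors deposited the scanner intensity values of each array, background-corrected per spot and not normalized between arrays, and a table of intensity values that they had quantile normalized. The deposited flags of the scanner software for each spot, and its position, were used as given. Here control spots and outlier spots were left out, and probes were kept whose signal exceeded the local background 1.4-fold on 4 or more of the 9 arrays (39302 of 39429). Log2 intensities were quantile normalized, the spots of a probe averaged, and groups compared with limma 3.58.1 in R 4.3.3 (intensity trend, Benjamini-Hochberg over all probes). Differences are irradiated minus control. Ratios were tested with two-sided exact permutation tests. The number of arrays limits the precision. Accessions were named through a RefSeq table of GRCm38.p6. Of the accession column, control 4 and irradiated 5 carry another version, in which the members do not differ, and that of the other 7 arrays was used.

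The members, gene lists and tests were chosen with earlier results of these data known. Named were all 10 members, pathway genes with a limma p under 0.05, marker genes that define a cell type, and, for Kdr, Tek and Vegfa, the 3 genes with the most similar profile. Genes of the pathway named beyond this rule were chosen after their values were seen. Scripts were tested on simulated data. The alternatives were normexp background correction, 75th percentile scaling, other background filters, the authors' table, each array left out, control 3 and irradiated 1 left out, replicate number or scan neighbors as a block, the mean of all probes, no intensity trend, array weights and a stricter threshold.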

Additional observations from a re-analysis of the deposited data

Results flagged for a closer look

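Dixon's test for a single distant value was met in 8 of the 76 sets of arrays checked, and chance alone meets it in about 5%. The sets are not independent, since the same value can enter several of them, as that of Flt4 in control 1 does below. The count is therefore not a test against that share. Flt1 had a log2 intensity of 15.78 in irradiated 1, against 14.80 to 14.96 in the other irradiated arrays. Flt4 was at 8.62 in control 1, against 7.22 to 7.43 in the other control arrays. Relative to the endothelial markers of the same array, Flt4 was at -5.79 in control 1 (others -6.89 to -6.81), Kdr at 1.03 in control 2 (others 0.21 to 0.35) and Flt1 at 1.29 in control 2 (others 0.79 to 0.83). The mean of the 5 receptors relative to the control mean was 0.28 in control 1, against -0.11 to -0.05 in the other control arrays. The mean of cardiac muscle genes was -5.44 in irradiated 1 (others -0.47 to 0.44), and that of skeletal muscle genes 4.60 in control 3 (others -1.87 to -1.27). The causes were not tested.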

How the results depend on the processing

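Over 21 alternatives, the differences of 9 of the 10 members kept their sign, Tek between -0.90 and -0.48 and Tie1 between -0.34 and -0.16 (limma adjusted p from 0.0274 to 1.00 and from 0.0469 to 1.00). The count of members past the threshold was 1 with scan neighbors as a fixed or as a random block and 0 otherwise. That of pathway genes was 5 and 8 with these blocks, 1 without irradiated 1, and 0 otherwise. Of all probes, the fixed block called 2.81% and the random block 7.37%. The count over all probes was 131. It was 197 with the filter on all 9 arrays, 44 with the authors' table and also with no intensity trend, 5 at a stricter threshold of 0.01, 1105 with the fixed block and 2896 with the random block, and with 1 array left out it ran from 5 (without control 3) to 485 (without irradiated 1). The cause was not tested. The labels' replicate numbers did not pair the arrays (correlations of deviations 0.06, -0.02, -0.05 and -0.17), and with the replicate block 1 probe passed over all and no member. Vegfc turned sign without control 2 (-0.047), without irradiated 1 (-0.015), without control 3 and irradiated 1 (-0.0091) and with the fixed block (-0.016), so that leaving out an array gave -0.047 to 0.25. With 1 array left out, Vegfa over Kdr ran from -0.23 to 0.20, Vegfa over Flt1 from -0.23 to 0.12, Angpt2 over Angpt1 from -0.11 to 0.0072 and Kdr over Flt1 from -0.20 to 0.015. Likewise Kdr and Flt1 relative to the endothelial markers ran from -0.21 to 0.060 and from -0.16 to 0.066. With the replicate block Vegfa over Kdr was -0.15 and Kdr over Flt1 0.016, without control 3 and irradiated 1 Vegfa over Flt1 was 0.15, and with the fixed block it was 0.093. The random block was not run for ratios within an array, whose permutation test has no such term.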

Other observations

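Of 12 genes known to be induced by hypoxia factors, 10 were higher and 2 lower in the irradiated arrays, with a median difference of 0.20 (0.33 without control 3 and irradiated 1), and 0 passed after adjustment in limma without a block. With scan neighbors as a fixed block 4 passed (Adm, Car9, Ndrg1 and Ldha), all higher, and with a random block also 4 (Car9, Ankrd37 and Ldha higher, Pdk1 lower), against 2.81% and 7.37% of all probes. At an unadjusted p under 0.05, 3 were higher and 2 lower, against 7.37% and 4.99% of all genes. Car9, a carbonic anhydrase, was at 7.75, 7.77, 8.13 and 7.84 in control and at 8.60, 8.49, 8.64, 9.10 and 8.47 in irradiated arrays. The difference was 0.79 (limma adjusted p = 0.094), with all irradiated arrays above all control arrays, as for 2.51% of all probes. Ankrd37 was at 10.62, 10.34, 10.10 and 10.13 in control and at 10.29, 10.57, 12.41, 12.49 and 12.29 in irradiated arrays, so that irradiated 3, 4 and 5 were far above both other irradiated arrays. Pdk1 and Bnip3 differed by -0.42 and -0.20 (limma adjusted p = 0.346 and 0.472). These genes were picked after their values were seen. Vegfa, which the same factors are known to induce, differed by -0.16 on the same arrays.

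As a description over 9 arrays and 15234 genes, the profiles most like that of Tek, by root-mean-square distance of standardized log2 values, were those of Gm5148 (0.304), Sirt5 (0.317) and Arglu1 (0.337). For Kdr they were Hr (0.328), Bcl2l2 (0.329) and Cxcl14 (0.364), and for Vegfa they were Reps1 (0.294), Tnp1 (0.304) and Hirip3 (0.306). None of these is a member or a gene of the pathway list.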
